A study of Mus musculus with 6 samples.

Results

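A set of 10 genes of monocytes and dendritic cells was followed in RNA from bone endothelial cells (BECs): Ly6c2, Ccr2, Csf1r, Cx3cr1, F13a1, Irf8, Siglech, Flt3, Zbtb46 and Clec9a. They were taken by name as 10 of the 37991 genes in the count table, all 10 were found there, and all 10 passed the filter on low counts that left 19480 genes for testing. The libraries came from untreated c57/Bl6 mice of 12 weeks, 3 from females and 3 from males, and the comparison was between the sexes. Per the labels the cells were captured from tibia by endomucin, a sialomucin of venous and capillary endothelium, whereas the paper's methods name tibiae and femurs, with red cells lysed and the bead-bound cells washed before RNA was taken. The labels number the samples within each sex but do not say that each is a separate animal, so the p-values measure the spread between these samples.

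Monocytes and dendritic cells are born in the bone marrow. Classical monocytes carry Ly6C and the chemokine receptor CCR2 and leave the marrow through its sinusoids, and non-classical monocytes carry little Ly6C and much of the fractalkine receptor CX3CR1. Dendritic cells depend on the receptor FLT3, and comprise conventional subsets, which present antigen to T cells, and plasmacytoid cells, which make type I interferon.

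Total counts were between 47678806 and 58325745 a library, and a gene with 3 counts, set as the floor of detection, had 0.0477 to 0.0639 CPM (read counts scaled by TMM to a common library size, the unit used below unless stated). This floor covers counting error only, because reads were amplified and not tagged by molecule. Markers of endothelium were present but low: 12 listed genes summed to 352 to 490.3 CPM in females and 204 to 305 CPM in males, and Emcn, which encodes endomucin, lay between 3.09 and 10.5 CPM. In the same libraries 12 neutrophil genes summed to 17986.1 to 21892.4 CPM in females and 30457.2 to 42132.8 CPM in males, and 10 macrophage genes to 4928.4 to 5125.9 CPM in females and 3184.8 to 4285.2 CPM in males. No marker of these 3 lists was at 0 in any library. The 10 monocyte and dendritic cell genes summed to 923 to 1042.8 CPM in females and 924 to 975 CPM in males, so that their total overlapped between the sexes. In such bulk RNA, fewer cells of a type and less RNA per cell cannot be told apart.

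**Figure D1:**
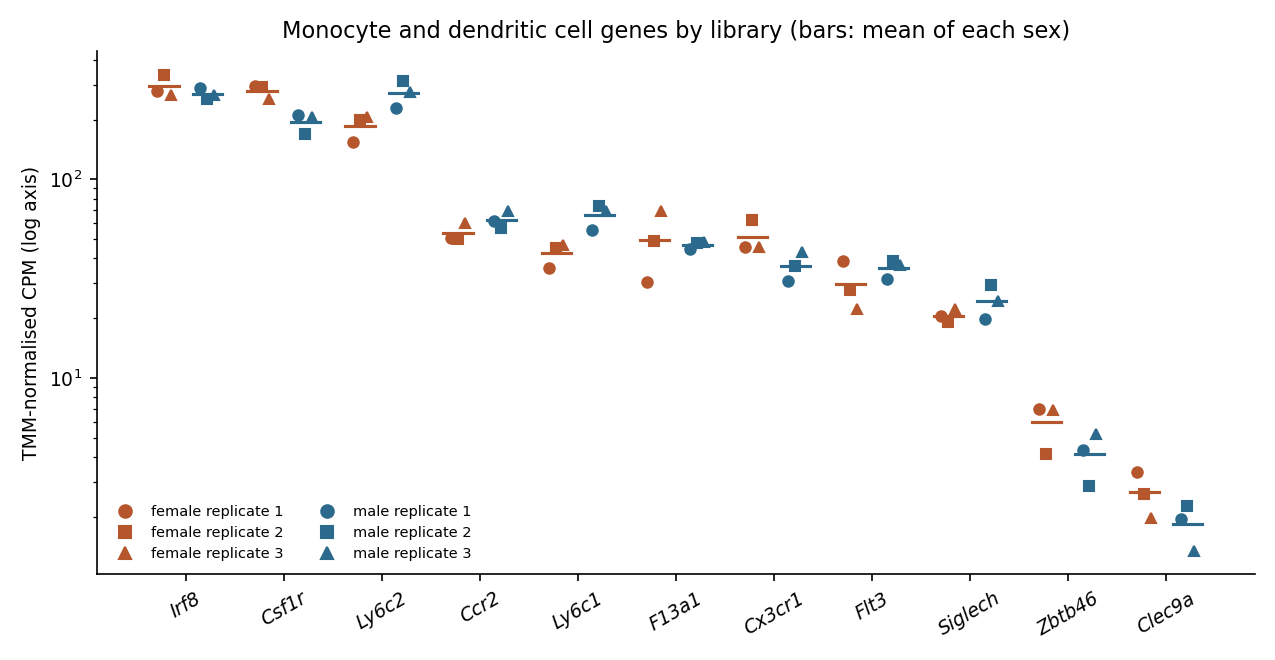
TMM-normalised CPM (log axis) of the 10 genes and of Ly6c1, the near copy of Ly6c2, in each library, with colour for sex, marker shape for replicate number and bars for the mean of each sex. The males lie above the females for Ly6c2 and Ly6c1 and below them for Csf1r and Cx3cr1, and the sexes overlap for the other 7 genes.

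Because the reads of Ly6c2 may not be separable from those of its neighbour Ly6c1, their coding sequences are shown first. Ly6c2 lies on the minus strand at chr15:74980003-74988467 and Ly6c1 on the same strand at chr15:74915847-74920686 (GRCm39, GENCODE M39). The first 120 bases of their coding sequence, joined from the coding exons of 1 GENCODE transcript a gene, read 5′ to 3′ with the bases that differ in capitals:
Ly6c2: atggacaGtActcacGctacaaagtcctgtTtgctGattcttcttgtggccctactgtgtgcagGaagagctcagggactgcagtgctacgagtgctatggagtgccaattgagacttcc
Ly6c1: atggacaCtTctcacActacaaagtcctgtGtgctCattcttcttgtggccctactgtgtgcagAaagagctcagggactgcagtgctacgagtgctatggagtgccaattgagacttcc
Of the 9 differences, 6 lie in this stretch. Each coding sequence is 396 bases long, their identity is 97.7%, and the longest run with no difference spans 188 bases. Of the 40-base windows in the longest coding transcript of Ly6c2, 44.46% were found in another gene's transcript as well, mostly in Ly6c1, and of its 100-base windows 11.05% were. How reads that match both genes were assigned is not given in the sources used here, so the values of Ly6c2 and Ly6c1 are uncertain to that extent.

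Ly6c2 encodes the Ly6C protein that marks classical monocytes. Its level was 154, 199.6 and 205 CPM in females 1 to 3 and 229.7, 312 and 275 CPM in males 1 to 3. All 3 males lay above all 3 females. The means were 186 ± 28.0 CPM in females and 273 ± 41.4 CPM in males (SD, n = 3 each), 1.47 times higher in males, and the log2 difference of males over females was 0.55 (SE 0.158, 95% interval 0.20 to 0.90). The adjusted p was 0.275 by edgeR (quasi-likelihood fit, Benjamini-Hochberg over all 19480 genes), so the difference did not pass the threshold of 0.05. Ly6c1, which endothelial cells and other leukocytes also express, had 35.7, 45.1 and 46.9 CPM in females and 55.6, 73.7 and 69.3 CPM in males, again with no overlap (log2 difference 0.64, SE 0.148, edgeR adjusted p = 0.177). DESeq2 called Ly6c1, with an adjusted p of 0.018, and over all alternatives its adjusted p ran from 0.00753 to 0.767. Neutrophils carry Ly6C too, and the neutrophil gene S100a8 had 4333.8, 5224.3 and 5138.7 CPM in females and 7597.5, 12524.2 and 10615.4 CPM in males. Its part in the difference of Ly6c2 was not tested.

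Ccr2, the receptor for CCL2 that draws classical monocytes out of the marrow, is another gene of the same cells (chr9:123901982-123913594). It was measured at 50.7, 50.1 and 60.6 CPM in females and 61.5, 57 and 69.2 CPM in males. Males 1 and 3 were above every female, and male 2 lay below female 3, so the sexes overlapped. The log2 difference was 0.22 (SE 0.125, 95% interval -0.06 to 0.50, edgeR adjusted p = 0.61).

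Csf1r encodes the receptor for CSF1 and IL-34, which monocytes, macrophages and osteoclast precursors need. Its level was 296, 291 and 253 CPM in females and 212, 169 and 205 CPM in males. All 3 males lay below all 3 females. The means were 280 ± 23.4 CPM in females and 195 ± 23.0 CPM in males (SD, n = 3 each), 1.43 times higher in females, with a log2 difference of -0.52 (SE 0.134, 95% interval -0.82 to -0.22). The edgeR adjusted p of Csf1r was 0.23, and DESeq2's Wald test, the tool of the study, gave an adjusted p of 0.0291 with the same log2 difference of -0.52. Over all alternatives the adjusted p of Csf1r ran from 0.0291 to 0.922, the highest being that without male 2 (log2 difference -0.42). The gene lies on chromosome 18, and 19.85% of its exon bases are overlapped on the other strand by Hmgxb3, whose reads would be counted apart only if strand was used, which the sources used here do not state.

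Cx3cr1, the fractalkine receptor of non-classical monocytes and of some macrophages, lies on the minus strand at chr9:119877749-119898945. It had 45.7, 62.6 and 45.8 CPM in females and 30.6, 36.4 and 43.2 CPM in males. All males were below all females, though male 3 came within a few CPM of female 1 and female 3. The log2 difference was -0.49 (SE 0.166, 95% interval -0.85 to -0.12), 1.4 times higher in females, and the edgeR adjusted p was 0.365.

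The macrophage gene Adgre1, which encodes F4/80, was lower in males beside both genes: it had 206, 198 and 194 CPM in females and 152, 125 and 167 CPM in males. All 10 listed macrophage genes had a negative log2 difference, with a median of -0.40. Vcam1, with 1039.1 to 1262.5 CPM in females and 768 to 994 CPM in males, was one of them. Divided by Adgre1 in the same library, the counts of Csf1r were 1.44, 1.47 and 1.31 in females and 1.39, 1.35 and 1.23 in males. That ratio overlapped between the sexes and varied 1.19-fold over the 6 libraries. The 7 osteoclast genes tested were mixed, 3 with a positive and 4 with a negative log2 difference. Acp5 and Ctsk were below the female range in every male, at 123, 154 and 131 against 110.3, 98.5 and 108 CPM for Acp5, while the summed level of the 8 listed genes, mostly Mmp9 (named after its values were seen), was higher in males (959 to 1032.6 against 666 to 831 CPM). The part of macrophages or osteoclasts in the differences of Csf1r and Cx3cr1 was not tested.

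F13a1, the A subunit of coagulation factor XIII, is made by classical monocytes, some macrophages and megakaryocytes (minus strand, chr13:37051152-37234277). Its values spread far more in females, at 30.3, 48.9 and 69.4 CPM, than in males, at 44.5, 47.9 and 48.2 CPM. All males fell inside the range of the females. The coefficient of variation was 39.5% in females and 4.42% in males, and the log2 difference was -0.08 (SE 0.242, 95% interval -0.62 to 0.46, edgeR adjusted p = 0.945). Without female 3 the log2 difference of F13a1 turned to 0.24. Megakaryocyte markers varied along other lines: Pf4 had 66.1, 21.5 and 49.3 CPM in females and 27.0, 15.5 and 48.9 CPM in males, so that female 1, lowest in F13a1, was highest in Pf4, and the part of megakaryocytes in F13a1 was not tested.

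Irf8 encodes the transcription factor that monocyte and dendritic cell precursors need, and B cells express it too (chr8:121463096-121485659). It was measured at 277, 337 and 267 CPM in females and 289, 255 and 265 CPM in males. Female 2 stood above the other 5 libraries, which lay between 255 and 289 CPM, and the sexes overlapped. The log2 difference was -0.12 (SE 0.134, 95% interval -0.42 to 0.17, edgeR adjusted p = 0.803). The 8 B cell genes tested summed to 2882.8 to 3279.1 CPM in females and 2910.7 to 3353.5 CPM in males, which overlap as well. Of these genes, 4 had a positive and 4 a negative log2 difference. Cd79a, a subunit of the B cell receptor complex, differed by -0.07 on the log2 scale. Pax5, named after its values were seen, was higher in all males (269, 235 and 214 against 282, 288 and 357 CPM, log2 difference 0.37, edgeR adjusted p = 0.43).

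Flt3 encodes the receptor tyrosine kinase on which dendritic cells and their progenitors depend (minus strand, chr5:147267551-147337483). Its level was 38.9, 27.6 and 22.1 CPM in females and 31.3, 38.9 and 37.2 CPM in males. Female 1 was as high as the highest male, while females 2 and 3 lay below all males. The log2 difference was 0.28 (SE 0.192, 95% interval -0.15 to 0.70, edgeR adjusted p = 0.684), and with each library left out it lay between 0.10 (without female 3) and 0.54 (without female 1). Kit, a marker of early progenitors, which also carry FLT3 as they mature, had 19.1, 14.2 and 16.4 CPM in females and 15.1, 11.8 and 10.3 CPM in males.

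Siglech encodes a surface lectin of plasmacytoid dendritic cells (chr7:55417926-55429195). It had 20.4, 19.2 and 22.1 CPM in females and 19.7, 29.3 and 24.4 CPM in males. Males 2 and 3 were above every female and male 1 was not. The log2 difference was 0.25 (SE 0.16, 95% interval -0.11 to 0.60, edgeR adjusted p = 0.652), and it was 0.10 without male 2 and 0.38 without male 1.

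Zbtb46 and Clec9a mark conventional dendritic cells and were the scarcest of the genes. Zbtb46, a zinc finger factor that endothelial cells express too (minus strand, chr2:181012111-181104879), had 6.95, 4.12 and 6.88 CPM in females and 4.35, 2.84 and 5.21 CPM in males. The sexes overlapped because female 2 was lower than males 1 and 3, and the log2 difference was -0.53 (SE 0.297, 95% interval -1.19 to 0.12, edgeR adjusted p = 0.597). The endothelial gene Cdh5 (VE-cadherin) had its lowest value of each sex in the same libraries, at 31.2, 15.8 and 32.6 CPM in females and 12.6, 6.5 and 16.1 CPM in males. Per count of Cdh5, Zbtb46 gave 0.223, 0.261 and 0.211 in females and 0.344, 0.438 and 0.322 in males, a ratio higher in all 3 males. The share of the Zbtb46 reads that came from endothelial cells was not tested.

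Clec9a, a lectin by which cross-presenting dendritic cells sense dead cells (chr6:129385825-129401726), had 3.36, 2.61 and 1.98 CPM in females and 1.94, 2.25 and 1.35 CPM in males. Male 2 lay above female 3, so the sexes overlapped, and the log2 difference was -0.52 (SE 0.322, 95% interval -1.24 to 0.19, edgeR adjusted p = 0.635). Of the exon bases of Clec9a, 82.66% are overlapped by Clec1a and Clec1b, mostly on the other strand, so these low counts are uncertain unless reads were counted by strand.

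**Figure D2:**
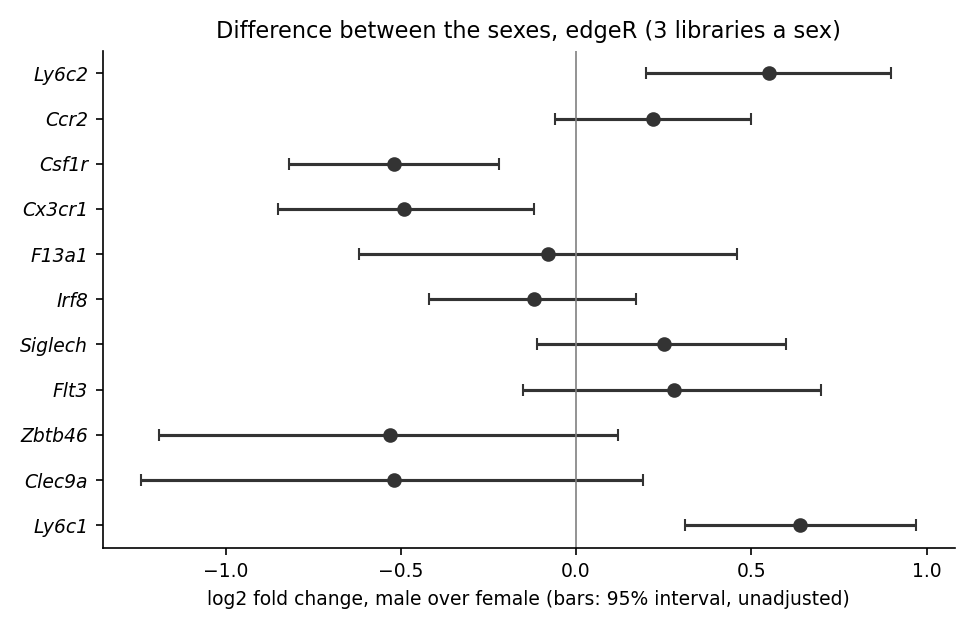
Log2 fold change of males over females for the 10 genes and Ly6c1 from edgeR, with 3 libraries a sex and bars for the unadjusted 95% interval. The intervals of Ly6c2 and Ly6c1 lie above 0, those of Csf1r and Cx3cr1 lie below 0, and the other 7 include 0.

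By count, 0 of the 10 genes passed edgeR's adjusted p of 0.05, where 0.0411% of all genes tested did (8 of 19480). At an unadjusted p under 0.05 there were 3 of the 10, against 9.79% of all genes, and DESeq2's Wald test called 1, Csf1r, against 1.99%. In 3 of the 10 genes the sexes were fully separated, without overlap of their libraries, against 14.5% of all genes in either direction: 1 had all males above (7.25% of all genes) and 2 had all males below (7.29%). The log2 differences were positive for 4 genes and negative for 6, with a median of -0.10, beside a median of -0.00125 and 50.2% below 0 over all genes tested.

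Some genes were also set against each other within a library, which needs no scaling between libraries. These ratios were chosen after the values had been seen and are given without a test. Since Ly6c2 was above the female range in every male and Csf1r and Cx3cr1 below it, their ratios had to separate the sexes, and only their size is described. For each count of Csf1r there were 0.519, 0.686 and 0.808 counts of Ly6c2 in females and 1.09, 1.85 and 1.34 in males, a mean 2.12 times higher in males (ratios of counts, not of levels per kilobase). For each count of Cx3cr1 there were 3.36, 3.19 and 4.46 counts of Ly6c2 in females and 7.5, 8.6 and 6.38 in males, a mean 2.04 times higher in males. For Ccr2 per Cx3cr1 the ratios were 1.11, 0.8 and 1.32 in females and 2.01, 1.57 and 1.6 in males. The ratio of Ly6c2 to Ly6c1, which share sequence as given above, was between 3.98 and 4.43 in all 6 libraries, with every male slightly below every female. Set against S100a8, Ly6c2 was lower in males, at 0.0302, 0.0249 and 0.026, than in females, at 0.0355, 0.0382 and 0.0398.

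**Figure D3:**
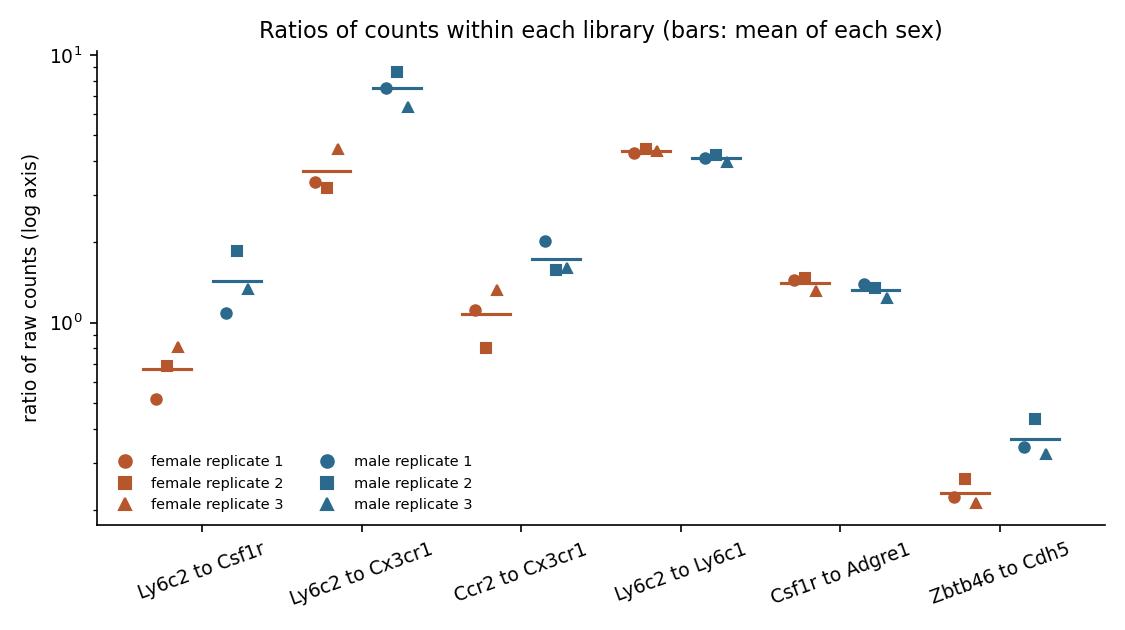
Ratios of the raw counts of 2 genes within each library (log axis), with colour for sex, marker shape for replicate number and bars for the mean of each sex. The mean ratios of Ly6c2 to Csf1r and to Cx3cr1 are 2.12-fold and 2.04-fold higher in males, while the ratio of Csf1r to Adgre1 overlaps between the sexes.

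Further genes of the same cells were described from lists. These counts stand beside 9.79% of all genes tested at an unadjusted p under 0.05, of which 980 were higher and 928 lower in males, beside 7.25% with all males above and 7.29% with all males below, and beside 50.2% with a negative log2 difference. Of 14 classical monocyte genes, 8 had a positive and 6 a negative log2 difference, and 5 were higher and 2 lower in males at an unadjusted p under 0.05 (median log2 difference 0.06). Lyz2, the lysozyme of myeloid cells, had 2576.9, 3100.5 and 3225.3 CPM in females and 3753.6, 4434.6 and 4997.2 CPM in males, with no overlap (log2 difference 0.57, edgeR adjusted p = 0.326). S100a4, a calcium-binding protein, had 27.4, 37.6 and 29.4 CPM in females and 38.9, 51.8 and 55.8 CPM in males (log2 difference 0.63, edgeR adjusted p = 0.24). Neutrophils express Lyz2 as well. Of the 12 neutrophil genes, 0 passed edgeR's adjusted p of 0.05, while 8 were higher in males at an unadjusted p under 0.05 and DESeq2 called 7. The exception in direction, named after the values were seen, was Mpo, the myeloperoxidase of their precursors, whose libraries overlapped between the sexes (log2 difference -0.61, and -0.84 to -0.09 with each library left out). The part of neutrophils in Lyz2 was not tested. Ctss, a lysosomal protease that macrophages share, overlapped between the sexes at 540.3 to 664 CPM in females and 467 to 572 CPM in males.

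Of 10 non-classical monocyte genes, 5 were lower and 1 higher in males at an unadjusted p under 0.05, and in those 5 the sexes did not overlap. Treml4 had 41.6, 41.3 and 41.4 CPM in females and 30.4, 27.9 and 32.5 CPM in males (log2 difference -0.45, edgeR adjusted p = 0.207). Ear2, an eosinophil-associated ribonuclease, had 75.0, 89.6 and 91.9 CPM in females and 54.8, 55.3 and 67.9 CPM in males (log2 difference -0.53, edgeR adjusted p = 0.214). The exception was Cebpb, a factor that non-classical monocytes need and that granulocytes express as well, with 41.7 to 56.3 CPM in females and 54.2 to 79.7 CPM in males. The summed level of the list was 569 to 610.2 CPM in females and 516 to 523 CPM in males, and its median log2 difference was -0.25.

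Of 14 conventional dendritic cell genes, 12 had a negative log2 difference, 6 of them at an unadjusted p under 0.05, and 0 were higher at that p (median log2 difference -0.29). Clec10a, a galactose-binding lectin, had 20.5, 20.3 and 17.5 CPM in females and 11.1, 9.72 and 14.5 CPM in males (log2 difference -0.72, edgeR adjusted p = 0.202). Fscn1, the actin-bundling protein of mature dendritic cells that endothelial cells may also express, had 23.1, 20.1 and 27.5 CPM in females and 11.5, 8.12 and 18.4 CPM in males (log2 difference -0.90, edgeR adjusted p = 0.29). The 12 endothelial genes lay on the same side, all 12 with a negative log2 difference (median -1.15), 10 of them at an unadjusted p under 0.05, 0 called by edgeR and 5 by DESeq2. The part of endothelial cells and macrophages in the conventional dendritic cell and non-classical monocyte lists was not tested. The most abundant conventional dendritic cell gene per kilobase was Sirpa, which macrophages also carry, with 432 to 529 CPM in females and 338 to 432 CPM in males. Ccr7, by which dendritic cells reach lymph nodes and which lymphocytes carry too, overlapped between the sexes with a log2 difference of -0.08.

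The 12 plasmacytoid dendritic cell genes were divided evenly, 6 above and 6 below 0, and their sums overlapped between the sexes. Spib and Ly6d, both shared with B cells, were the most abundant per kilobase, with 387 to 597 CPM and 321 to 404 CPM over the 6 libraries. Pld4, a lysosomal exonuclease, was lower in all males (138, 142 and 111 against 107, 85 and 100.5 CPM, edgeR adjusted p = 0.343). Upb1, an enzyme of pyrimidine breakdown, was higher in all males (6.43, 6.13 and 4.75 against 9.07, 8.24 and 7.88 CPM, edgeR adjusted p = 0.401). In edgeR no gene of these 4 lists passed an adjusted p of 0.05, while DESeq2 called 2 classical monocyte, 2 non-classical monocyte, 2 conventional dendritic cell and 0 plasmacytoid dendritic cell genes, against 1.99% of all genes. Those called were Lyz2 and S100a4, Ear2 and Ace, and Clec10a and Fscn1, of which Ace is named only because it was called.

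**Figure D4:**
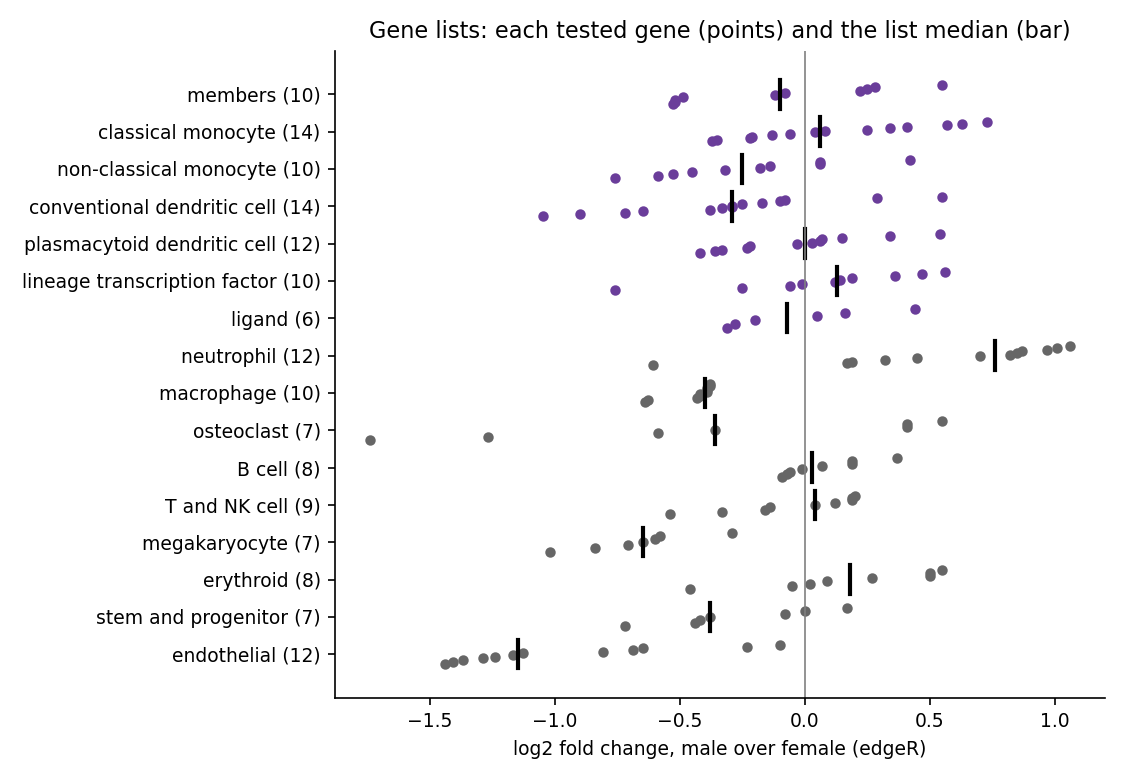
Log2 fold change of males over females from edgeR for each tested gene (points) of the 10 monocyte and dendritic cell genes, here called members, and of 15 lists, with black bars for the list medians and the number of tested genes in brackets. Lists of other cells are in grey. The medians of the non-classical monocyte (-0.25) and conventional dendritic cell (-0.29) lists lie below 0 on the same side as that of the macrophage list (-0.40), the megakaryocyte (-0.65) and endothelial (-1.15) medians lie lower still, and the neutrophil list lies at 0.76.

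The transcription factors that direct these lineages gave 3 genes higher and 1 lower in males at an unadjusted p under 0.05 among 10 (9.79% of all genes in either direction), with a median log2 difference of 0.13. Spi1, which encodes PU.1, a factor of all myeloid cells, had 203, 267 and 211 CPM in females and 264, 308 and 303 CPM in males (log2 difference 0.36, edgeR adjusted p = 0.441). Batf3, needed by the dendritic cells that carry CLEC9A, had 3.5, 5.01 and 4.96 CPM in females and 2.15, 2.52 and 3.27 CPM in males (log2 difference -0.76, edgeR adjusted p = 0.391), with no overlap. Nfil3 was higher in all males (9.83, 11.9 and 10.2 against 12.7, 17.7 and 16.8 CPM), and so was Gfi1, a repressor that favours granulocytes (7.16, 6.24 and 8.03 against 9.97, 10.3 and 9.4 CPM). Klf4, Irf4, Id2, Zeb2, Cebpa and Bcl6 overlapped between the sexes, with log2 differences from -0.25 to 0.19.

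Among the 7 listed ligands found in these libraries, Csf1 was the highest. Csf1, a ligand of the Csf1r product, had 29.3, 14.4 and 26.4 CPM in females and 24.9, 20.7 and 27.1 CPM in males, and Il34, the other ligand of that receptor, had 6.65, 2.23 and 7.48 CPM in females and 8.33, 4.63 and 9.21 CPM in males. Cx3cl1, the ligand of CX3CR1, lay between 2.15 and 5.96 CPM. In all 3 ligands replicate 2 was the lowest library of each sex, as it was for Cdh5. Ccl2, Ccl7 and Ccl12, which bind CCR2, lay between 0.437 and 1.55 CPM, and Csf2 did not pass the filter, with 0 to 0.122 CPM. 0 of the 6 ligands tested passed an unadjusted p of 0.05, their median log2 difference was -0.07, and neither edgeR nor DESeq2 called any at an adjusted p of 0.05.

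Levels of different genes were compared per kilobase of the gene's merged exons. In this measure Ly6c2 stood first at 75.0 CPM per kilobase (range of the 6 libraries 50.3 to 102), above Csf1r at 32.3 and Irf8 at 29.0, whose ranges overlapped each other and not that of Ly6c2. Cx3cr1 (9.46), Ccr2 (8.6), F13a1 (7.09), Flt3 (5.02) and Siglech (4.6) followed, and each overlapped the next in range. Clec9a (0.683) and Zbtb46 (0.309) lay below all of them, and their ranges met. The order turned on the length in places: per kilobase of the longest transcript, Irf8 (50.2) came before Csf1r (37.3), F13a1 (12.2) before Ccr2 (10.2) and Cx3cr1 (9.8), and Zbtb46 (0.749) before Clec9a (0.683). Ly6c2 was first under each length, with 85.5 CPM per kilobase of its longest transcript and 215 of its longest protein-coding one.

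**Figure D5:**
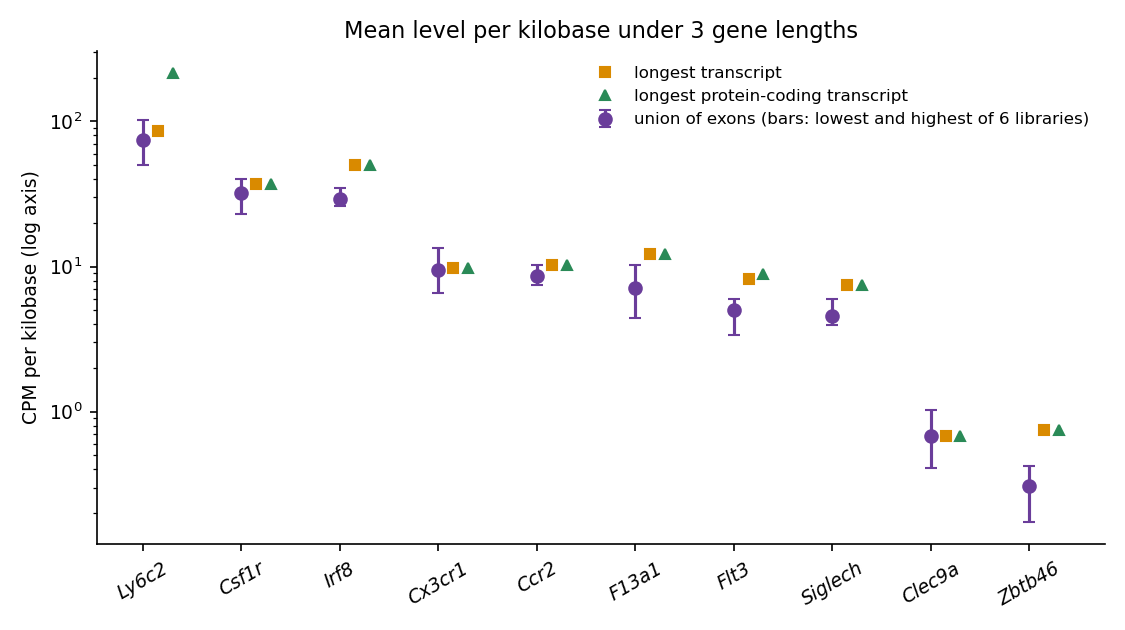
Mean level of each gene over the 6 libraries in CPM per kilobase (log axis) under 3 gene lengths, with bars from the lowest to the highest library for the merged exons. Ly6c2 is first and Zbtb46 and Clec9a are last under all 3 lengths, and the order between changes with the length used.

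For each gene the genes with the most similar profile over the 6 libraries, up to 2, were taken, by the root mean square difference of centred log2 CPM among 11690 other genes of at least 5 CPM (11691 for Clec9a, itself below 5 CPM). This is a description of 6 points that share libraries. Ly6c2 was nearest to Lrg1 (0.0428) and to its near copy Ly6c1 (0.0516), Csf1r to St3gal3 (0.044) and Ephx1 (0.0628), and Irf8 to Pold4 (0.0264) and Rxrb (0.0277). Cx3cr1 was nearest to Anxa4 (0.0737) and Macrod1 (0.0818), Ccr2 to Cby1 (0.0567) and Plekhf2 (0.0624), and F13a1 to Gemin6 (0.0915) and Gm17709 (0.0959). Zbtb46 was nearest to Cdc42ep1 (0.0556) and Adgrl2 (0.0689), Flt3 to Gm14340 (0.0743), Siglech to 3110009E18Rik (0.0515) and B4galt6 (0.0536), and Clec9a to Aars2 (0.146) and Rdh10 (0.151). No gene of the 10 was among those nearest to another.

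Since Ly6c1 had one of the 2 profiles nearest to that of Ly6c2, a likeness in which shared reads were not told apart, the promoters of both are shown, taken from RefSeq on GRCm38.p6 with 250 bases before and 50 after a transcription start. They read 5′ to 3′ on the minus strand, at chr15:75111888-75112187 for Ly6c2 and chr15:75048614-75048913 for Ly6c1, with capitals for GAGGAAGT, the core sequence bound by PU.1:
Ly6c2: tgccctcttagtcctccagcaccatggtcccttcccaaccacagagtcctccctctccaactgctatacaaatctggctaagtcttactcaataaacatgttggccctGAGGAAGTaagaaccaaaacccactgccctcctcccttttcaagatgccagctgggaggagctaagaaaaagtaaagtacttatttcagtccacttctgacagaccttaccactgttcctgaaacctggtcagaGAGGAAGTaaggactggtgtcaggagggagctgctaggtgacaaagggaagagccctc
Ly6c1: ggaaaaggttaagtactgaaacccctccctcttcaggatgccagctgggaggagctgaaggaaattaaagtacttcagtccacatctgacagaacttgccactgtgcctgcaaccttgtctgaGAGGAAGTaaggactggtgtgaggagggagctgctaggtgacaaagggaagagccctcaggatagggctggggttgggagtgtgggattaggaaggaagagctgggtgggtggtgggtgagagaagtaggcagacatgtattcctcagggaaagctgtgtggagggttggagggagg
This window of Ly6c2 held 2 copies, which begin 142 and 8 bases before the start, and that of Ly6c1 held 1, which begins 127 bases before it. The other Ly6c2 window, which overlaps this one, held the same 2 copies. The other Ly6c1 window also overlaps the one shown, but it ends inside that copy, so its count of 0 follows from where it was cut. The motif was searched on both strands and is found in 3.2% of the 32851 promoter windows of that length in the table. Of the other genes, 1 of the 2 windows of F13a1 held a copy, and the windows of Ccr2, Cx3cr1, Irf8, Flt3, Siglech, Zbtb46 and Clec9a held none, and Csf1r was not included. The composite element bound by PU.1 or SPIB together with IRF4 or IRF8, searched on both strands as GGAA, any 2 bases and GAAA, was in 2.72% of all windows and in no window of these genes, which says only that those letters are not there. A match is a description of the sequence and not a binding site.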

How the data were processed

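The table held 6 RNA libraries of bone endothelial cells from mice aged 12 weeks. The authors deposited whole-number read counts per gene and library, not normalised, with replicates kept apart. The submitters' processing notes list TopHat2 2.0.11, featureCounts and the build mm9, whereas the paper's methods name STAR, GRCm39 and featureCounts. Which of these made the table, and whether strand was used, is not given in the sources used here. Read length also differed (40 nucleotides in the labels and 100 in the paper), and both were used as windows for shared sequence.

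Gene identifiers were matched to GENCODE M39 on GRCm39 (31073 of 37991, with 96.2% of counts), and unmatched genes stayed in the test. Males were compared with females by edgeR 4.0.16 in R 4.3.3: TMM, the default filter by sex, robust quasi-likelihood fits, no covariate and Benjamini-Hochberg adjustment over 19480 genes. Standard errors are the log2 fold change over the square root of F. Total counts were 47678806 to 58325745 a library. DESeq2 1.42.0, other scalings and filters, the replicate number as a block, and each library left out were alternatives, and the longest protein-coding transcript as gene length was added after seeing the data. The script was tested on simulated data.

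The genes and lists (classical monocyte, non-classical monocyte, conventional dendritic cell, plasmacytoid dendritic cell, lineage transcription factor and ligand genes, and 9 lists of other cells) were chosen with earlier results of these data known. Genes named beyond the 10 are Ly6c1, all transcription factors and ligands of the lists, the 2 highest per kilobase and the 2 with the smallest p of each other monocyte or dendritic cell list, defining markers of other cells, and the 2 nearest profiles of each gene among those of at least 5 CPM. Nearness used log2 CPM with a prior count of 2. Flt3l and Vpreb1 had no row under their symbols and were not analysed here. Some genes that these rules name are not reported here.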

Additional observations from a re-analysis of the deposited data

How the results depend on the processing

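Over all genes 8 were called by edgeR, 14 with total counts alone, 98 without a filter on low counts, 354 by DESeq2's Wald test, and 5 (without female replicate 2) to 96 (without male replicate 3) with each library left out. Of the 10 monocyte and dendritic cell genes 0 were called in these edgeR fits and 1 (Csf1r) by DESeq2, where Ly6c2 had an adjusted p of 0.0542. With the replicate block 428 genes were called, and 1 of the 10 (Ly6c2, adjusted p = 0.0272, with a range over all alternatives of 0.0272 to 0.98). The deviations of same-numbered libraries correlated at 0.194, 0.0402 and 0.298, and those of differently numbered ones at -0.274 to 0.131. Each female correlated best with the male of her own number, though for female 2 by little (0.0402 against 0.0373 with male 1). Male 2 correlated better with female 1 (0.131) than with its own number. The labels only number the samples within each sex, so the main fit took no pairs. Whether the numbers mark a shared batch was not tested.

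Among the 10 genes the direction changed in F13a1 alone, from -0.33 to 0.24 on the log2 scale with each library left out (0.24 without female 3). Other named genes near 0 also changed sign when a library was left out, with these ranges: Irf4 -0.03 to 0.37, Id2 -0.16 to 0.13, Zeb2 -0.14 to 0.01, Csf1 -0.20 to 0.26, Ccl2 -0.08 to 0.41, Ccl7 -0.75 to 0.39, Cx3cl1 -0.59 to 0.07, Ccr7 -0.22 to 0.15, Spib -0.12 to 0.20, Cd79a -0.16 to 0.02, Cd3e -0.26 to 0.10, Nkg7 -0.00 to 0.42, Gemin6 -0.24 to 0.26, Gm17709 -0.27 to 0.15 and Pold4 -0.14 to 0.01. Id2 was at 0.00 with genes over 1% of a library left out, and Gemin6 at 0.01 with the replicate block. The cause of these changes was not tested. Of the other fits of single genes, 911 kept direction and side of the threshold and 25 passed it in the same direction. Clec9a had the fewest counts of the 10, 64 to 211 a library. With each library left out, the log2 difference lay between -0.62 and -0.32 in Cx3cr1, -0.19 and -0.01 in Irf8, 0.14 and 0.31 in Ccr2, -0.74 and -0.32 in Zbtb46, and -0.69 and -0.30 in Clec9a. The replicate block changed no other call among the 10 and called 10 further named genes. By edgeR every list had 0 genes called, and under the alternatives the count stayed at 0 in 173 cases and rose above it in 22. Levels per kilobase moved by more than the spread between libraries in 13 of the cases tried with another gene length.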

Other observations

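Markers of other blood cells that a marrow preparation can hold were present in every library. The 9 T and NK cell genes summed to 85.8 to 103 CPM in females and 75.2 to 92.5 CPM in males, with Cd3e of T cells at 2.62 to 4.22 CPM and Nkg7 of cytotoxic cells at 12.3 to 23.2 CPM. The 7 megakaryocyte genes summed to 58.3 to 215 CPM in females and 47.1 to 107 CPM in males, with Itga2b, an integrin of platelets, highest in female 1 at 33.9 CPM. The 8 erythroid genes summed to 6767.7 to 9676.4 CPM in females and 10105.2 to 14877 CPM in males, which did not overlap, but the sum was nearly all haemoglobin (Hba-a1 and Hbb-bs), and the sexes overlapped in the other 6 genes. The 7 stem and progenitor genes summed to 99.1 to 132 CPM in females and 108 to 122 CPM in males, and the 8 osteoclast genes, of which Calcr was at 0 in 3 libraries, to 666 to 831 CPM in females and 959 to 1032.6 CPM in males. In the osteoclast list Mmp9, which neutrophils also make, had a log2 difference of 0.55, while that of Ctsk, a collagen-degrading protease, was -0.59. Pecam1, which endothelial cells share with monocytes, platelets and neutrophils, overlapped between the sexes at 82.6 to 101 CPM in females and 68.5 to 90.6 CPM in males. The neutrophil gene S100a9 had 6921 to 8231 CPM in females and 11757.5 to 17506.3 CPM in males (log2 difference 0.97, edgeR adjusted p = 0.115), and DESeq2 called it with an adjusted p of 3.66e-06, the range over all alternatives being 3.66e-06 to 0.593.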
